A study of Mus musculus with 4 samples.

Results

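The genes described here encode the core proteins of the small nuclear ribonucleoproteins (snRNPs) and the factors that select splice sites in messenger RNA precursors, and they were measured in primary mouse ear fibroblasts in 2 states of the small nucleolar RNA (snoRNA) AF357425. They were chosen by gene symbol: the Snrp genes other than Snrpn, the Srsf, Sf3a, Sf3b, Prpf and Lsm families, U2af1, U2af2, Tra2a and Tra2b. This gave 60 of the 55536 gene IDs in the count tables, 59 of them protein coding and 1, Snrpert, a pseudogene in the RefSeq annotation. The rule uses no measured value. The groups were AF357425-High pulldown, AF357425-Low pulldown, AF357425-High whole-cell RNA and AF357425-Low whole-cell RNA, with 1 library in each. All 4 came from fibroblasts grown out of ear clippings of C57BL/6 mice, kept in KN93 (a CaM kinase II inhibitor) over 48 h and then transfected for 24 h, so the AF357425-Low cells carry both of these treatments too. The pulldown used an antibody against fibrillarin, the methyltransferase of C/D box snoRNPs, and its RNA was depleted of ribosomal RNA. The labels disagree on the transfection: the sample characteristics name overexpression for High and inhibition for Low, while the protocol names gapmers (antisense oligonucleotides) aimed at AF357425, or scrambled ones. The titles set the groups below. The sources used here do not give the age and sex of the mice or whether libraries shared a culture.

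As background, the spliceosome removes introns and is built anew on each one from the U1, U2, U4, U5 and U6 snRNPs. Sm proteins form a ring around the U1, U2, U4 and U5 RNAs, and LSm proteins form a related ring on U6. U1 recognises the 5' splice site, U2 with SF3A and SF3B the branch site, and U2AF the end of the intron, while serine- and arginine-rich (SR) proteins bound to exons help to choose among sites. Many SR protein and TRA2 genes carry an alternative exon whose inclusion marks their own messenger RNA for decay. Counts per gene do not separate such isoforms. C/D box snoRNAs such as AF357425 guide fibrillarin to methylate the ribose of target RNAs, and the U6 RNA is one of fibrillarin's known targets.

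The reads assigned to genes ranged from 21693030 to 27832061 per library. In the pulldowns 63.4% (AF357425-High) and 59.8% (AF357425-Low) of them came from the mitochondrial ribosomal RNAs, against 0.0926% and 0.0583% in the whole-cell libraries. Levels are in CPM, the usual scaling of a gene's reads by the library's total assigned to genes. A count of 0 allows a level of up to 0.108 to 0.138 CPM, that of 3 reads, depending on the library. AF357425 had 0 reads in all 4 libraries, so its own level does not check the labels. Of the 10 fibroblast markers, all reached 1 CPM in the pulldowns and 9 did in whole-cell RNA, whereas none of the 5 keratinocyte markers did in any library. The summed fibroblast markers were at 6606 and 6660 CPM in the High and Low pulldowns and at 41474 and 51892 CPM in the High and Low whole-cell libraries. The chondrocyte markers summed to 113 and 140 CPM in the pulldowns and to 288 and 203 CPM in whole-cell RNA, High before Low, and their part in the results was not tested. With a single library per group, the states could not be tested against a spread between replicates. Each log2 ratio instead carries a 95% interval from the read counts. It covers counting error alone, and PCR duplicates without molecular identifiers can make it too narrow. Genes were called (higher or lower) when the entire interval was past 2-fold. In RNA from a bulk of cells, fewer cells of a type and less RNA per cell cannot be told apart.

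Promoter stretches are shown for the 4 genes that the results turn on (Prpf38b, Prpf39, Prpf40b and Tra2a) and for Tra2b, the close relative of Tra2a. Each is the 150 bases just before an annotated transcription start, 5' to 3' on the strand of the gene (RefSeq, GRCm38.p6), with capitals marking GGGCGG or CCAAT on either strand. The Prpf38b stretch lies at chr3:108911730-108911879 on the minus strand, Prpf39 at chr12:65036184-65036333 on the plus strand, Prpf40b at chr15:99295091-99295240 on the plus strand, Tra2a at chr6:49264053-49264202 on the minus strand and Tra2b at chr16:22266006-22266155 on the minus strand.
Prpf38b: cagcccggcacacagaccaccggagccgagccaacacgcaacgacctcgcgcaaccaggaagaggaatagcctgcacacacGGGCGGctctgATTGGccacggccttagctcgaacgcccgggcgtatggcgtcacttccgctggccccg
Prpf39: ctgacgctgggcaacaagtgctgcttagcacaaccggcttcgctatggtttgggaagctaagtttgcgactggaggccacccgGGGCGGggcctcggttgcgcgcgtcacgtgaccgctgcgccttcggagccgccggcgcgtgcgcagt
Prpf40b: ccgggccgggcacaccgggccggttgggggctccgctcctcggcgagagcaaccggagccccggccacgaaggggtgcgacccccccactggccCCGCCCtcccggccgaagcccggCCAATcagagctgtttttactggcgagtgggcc
Tra2a: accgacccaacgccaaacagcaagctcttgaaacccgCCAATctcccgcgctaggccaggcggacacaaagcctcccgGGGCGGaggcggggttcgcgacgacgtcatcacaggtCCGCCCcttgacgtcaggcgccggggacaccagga
Tra2b: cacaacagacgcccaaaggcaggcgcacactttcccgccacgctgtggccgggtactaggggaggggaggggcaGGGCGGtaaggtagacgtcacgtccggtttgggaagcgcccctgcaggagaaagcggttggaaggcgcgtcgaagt
Every one of these stretches holds GGGCGG, the core of the GC box, and those of Prpf38b, Prpf40b and Tra2a also hold CCAAT. Prpf40b has a second annotated start, whose stretch holds neither. The stretches shown for Tra2a and Prpf40b lie inside the gene spans given below, whose 5' ends are further upstream. RefSeq windows of 300 bases around the start were found for 49 of the 60 genes, 60 windows in all, and were searched on both strands alongside all 32851 windows. GGGCGG occurred in 70.0% of the splicing-gene windows and in 35.7% of all windows. CCGGAAG, a form of the ETS factor motif, occurred in 36.7% and 8.86%. CCAAT was in 41.7% and 37.4%, and the TATA box TATAAA in 6.67% and 13.6%. The splicing-gene windows held a median of 24.5 CG dinucleotides, against 7 over all windows. A match describes the letters and shows no binding.

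In the pulldown, 52 of the 60 genes were measured, that is, they averaged at least 1 CPM over the pair of libraries, and 3 single genes passed the line between the states while the family's median was near 0. Tra2a, which binds exonic splicing enhancers, was higher in AF357425-High. Prpf38b and Prpf40b, relatives of yeast spliceosome proteins, were lower. Over all 10736 genes measured, 3.43% were called higher and 2.9% lower, and 1 and 2 calls among 52 genes are near that background. The split over all genes depends on the scaling: it was 368 higher and 311 lower by TMM (trimmed mean of M-values) scaling, and 238 higher and 608 lower by library totals, where 1 member was called higher and 3 lower, Prpf39 being added. The median log2 ratio of the family was 0.02, against -0.01 over all genes, with 27 genes above 0 and 25 below. The interval, which covers counting error alone, lay wholly above 0 for 17 genes, wholly below 0 for 15 and across 0 for 20. The same split over all genes was not computed, so these counts do not set the family apart. Within 1.5-fold were 41 of the 52 genes (78.8%), against 67.1% of all genes measured. The family and all genes were not matched for read depth, so these shares do not set the family apart either.

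In whole-cell RNA the same comparison was narrower. None of the 56 genes measured was called in either direction, against 0.111% higher and 0.133% lower among 13519 genes. The ratios ran from -0.37 to 0.58 with a median of 0.04, against -0.01 over all genes, and all 56 lay within 1.5-fold, as did 92.8% of all genes measured. Read depth was not matched in whole-cell RNA either. Without a filter on low values the counts of calls among the members were the same. Srsf12 and Snrpert averaged under 1 CPM in both kinds of library, Snrpc and Lsm2 were listed at 0, and in the pulldown Snrpf, Lsm5, Lsm7 and Lsm10 averaged under 1 CPM as well. By library totals instead of TMM scaling, the median over all genes shifts by -0.29 in the pulldown and by 0.06 in whole-cell RNA, so the pulldown ratios below are relative to the bulk of genes.

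**Figure D1:**
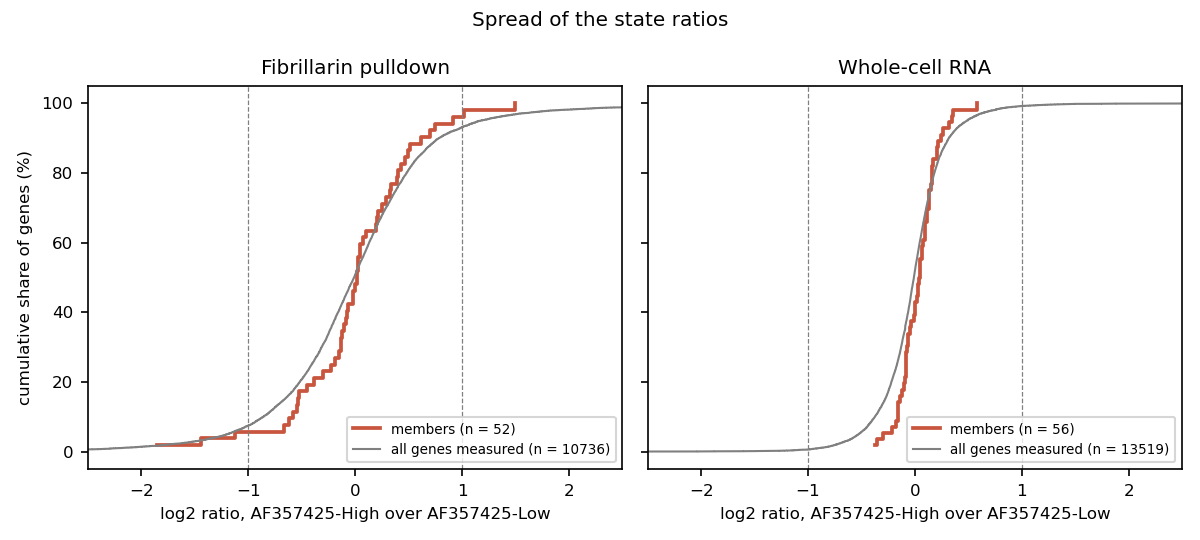
Cumulative share (%) of the 52 (pulldown, left) and 56 (whole-cell, right) splicing genes measured, in red, and of all genes measured, in grey, by log2 ratio of AF357425-High over AF357425-Low after TMM scaling; dashed lines mark 2-fold. The red curves are steeper than the grey ones, with read depth not matched, and in whole-cell RNA no splicing gene lies beyond 0.58.

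The Sm ring genes did not pass the line in either kind of library. Snrpd2, which pairs with Snrpd1 in the ring, had the highest ratio of the group in the pulldown, with 47 reads in High and 37 in Low, a log2 ratio of 0.75 (0.09 to 1.41). It had 646 and 569 reads in High and Low whole-cell RNA, a ratio of 0.09. Its pulldown interval spans from near equality to beyond 2-fold because so few reads were caught. Snrpd3, the partner of Snrpb, had the lowest ratio, with 97 reads in High and 175 in Low (-0.45, -0.82 to -0.08), and 601 and 563 reads in whole-cell RNA (0.00). Snrpb itself stood at 0.01 in the pulldown and -0.03 in whole-cell RNA. In whole-cell RNA the group ran from Snrpf at -0.08 (-0.34 to 0.17; 257 reads in High, 256 in Low) to Snrpg at 0.34 (0.12 to 0.57; 373 and 276 reads). Snrpg had 68 and 102 reads in the High and Low pulldowns, a ratio of -0.18. The median of the ring was 0.02 in the pulldown over 6 genes, since Snrpf had only 3 and 1 reads there, and 0.09 in whole-cell RNA over all 7.

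Among the 13 genes of the U1 and U2 snRNPs, none passed the line and the median ratios were 0.07 in the pulldown and 0.04 in whole-cell RNA. Snrpa1, the U2 A' protein, had the highest ratio in both kinds of library, with 110 reads in High and 77 in Low of the pulldown (0.92, 0.48 to 1.35) and 397 and 323 in whole-cell RNA (0.21). Snrpa, the U1 A protein that binds a stem-loop of U1 RNA, had the lowest in both, with 111 and 192 reads in the High and Low pulldowns (-0.39, -0.74 to -0.05) and 1084 and 1181 in whole-cell RNA (-0.21, -0.33 to -0.09). Its span overlaps that of the gene BC024978, and reads of the pair may be shared or dropped. The largest subunit of SF3B, Sf3b1, which holds the branch site helix, was near 0, with 2140 and 2631 reads in the High and Low pulldowns (0.10) and 8698 and 7890 in whole-cell RNA (0.05). Sf3a1 (0.62), Sf3a3 (0.51) and Sf3b4 (0.70, 0.35 to 1.06) had ratios above 0 in the pulldown and Sf3b3 one below (-0.30), all short of the line. Snrpc, the U1 C protein, was listed at 0 in every library, as was Lsm2, so neither gives a ratio. Genes used in every cell can be at 0 because of the annotation or because their reads were ambiguous, which was not tested here, so these zeros do not show that the genes were silent.

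The LSm genes gave medians of 0.05 in the pulldown, over 7 genes, and -0.12 in whole-cell RNA, over 10, with no call. Lsm12 was highest in the pulldown with 1088 reads in High and 1096 in Low (0.39, 0.27 to 0.51), and had 2371 and 2031 in whole-cell RNA (0.13). Lsm11, a protein of the U7 snRNP that processes histone messenger RNA, was lowest with 99 and 196 reads (-0.58, -0.95 to -0.23), and had 176 and 187 in whole-cell RNA (-0.18). Its partner in U7, Lsm10, was under 1 CPM in the pulldowns, with 12 reads in High and 23 in Low. In whole-cell RNA the group ran from Lsm5 (28 and 34 reads, -0.37, -1.15 to 0.39) to Lsm1 (294 and 230 reads, 0.26, 0.01 to 0.52), a subunit of the ring that acts in messenger RNA decay. The interval of Lsm5 still holds a 2-fold lower level, so a difference of that size is not excluded at its depth.

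The PRPF genes, named after yeast pre-mRNA processing mutants, held both lower calls. Prpf38b (ENSMUSG00000027881, chr3:108902805-108911729) resembles yeast Prp38, a protein needed to activate the spliceosome. It had 1031 reads (39.9 CPM) in the High pulldown and 3708 reads (133 CPM) in the Low pulldown, and 1227 (55.6 CPM) and 1024 (47.2 CPM) in High and Low whole-cell RNA. By library totals the Low pulldown had the highest level, and the other 3 lay between 39.9 and 55.6 CPM. How the pulldowns compare with whole-cell RNA depends on the totals, since mitochondrial reads take up most of the pulldowns. The mean log2 ratio of pulldown over whole-cell across the states was 0.51 by library totals and 1.95 without mitochondrial genes. The log2 ratio of High over Low was -1.45 (-1.55 to -1.35) in the pulldown, or 0.367-fold, and 0.17 (0.05 to 0.29) in whole-cell RNA. No other RefSeq gene overlaps its span. Prpf38a, the closer homologue of Prp38 and a protein of the B complex, had a ratio above 0 in the pulldown, with 212 and 138 reads in the High and Low pulldowns (8.20 and 4.96 CPM; 1.02, 0.70 to 1.34) and 358 and 371 reads in whole-cell RNA (-0.14, -0.36 to 0.07). Its point ratio lies just past 2-fold, its interval does not, and Orc1 overlaps its span.

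Prpf39 (ENSMUSG00000035597, chr12:65036334-65063386), the homologue of a yeast U1 snRNP protein, had 482 reads (18.6 CPM) in the High pulldown and 1384 (49.7 CPM) in the Low pulldown. Whole-cell RNA had the opposite order, with 1838 reads (83.2 CPM) in High and 1154 (53.2 CPM) in Low. The ratio was -1.12 (-1.27 to -0.97) in the pulldown, whose interval just reaches inside the 2-fold line (by library totals, -1.42 and called), and 0.58 (0.47 to 0.69) in whole-cell RNA, the highest of all 56 members there. Prpf39 contains a snoRNA gene, Gm25970, and overlaps Fkbp3. Gm25970 itself had 1 and 2 reads in the High and Low pulldowns and 11 and 0 in whole-cell RNA, while Fkbp3 had 357 and 510 reads and 801 and 855 reads in the same order. SnoRNA genes also lie within Sf3b3 (Snord111, with 1 and 0 reads in the High and Low pulldowns and 2 and 5 in whole-cell RNA) and within Sf3b4 (Gm22027, with 0 and 0 reads and 0 and 3 reads). Apart from the 11 reads of Gm25970 in High whole-cell RNA, where Prpf39 was at its highest too, these 3 snoRNA genes had 5 reads or fewer in every library, and no ratio is given. A further snoRNA gene within Sf3b3, LOC115485679, could not be matched to a gene ID of the count tables.

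Prpf40b (ENSMUSG00000023007, chr15:99295076-99317018), a homologue of another yeast U1 protein, Prp40, had 30 reads (1.16 CPM) in the High pulldown and 143 (5.14 CPM) in the Low pulldown. It had 531 (24.0 CPM) and 557 (25.7 CPM) in High and Low whole-cell RNA. The pulldown ratio was -1.85 (-2.47 to -1.28) and the whole-cell ratio -0.16 (-0.33 to 0.01). Its reads in the High pulldown are few, its call was lost at a minimum of 5 CPM, and Fam186b, which overlaps it, had 0 reads in both pulldowns. The remaining 9 PRPF genes ran from -0.14 (Prpf4b, a kinase) to 0.47 (Prpf4, a U4/U6 protein) in the pulldown. Prpf8, the U5 protein at the centre of the spliceosome, had 2875 and 3966 reads in the High and Low pulldowns (-0.06) and 12128 and 11973 in whole-cell RNA (-0.07). The median of the 13 genes was -0.06 in the pulldown and 0.00 in whole-cell RNA.

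**Figure D2:**
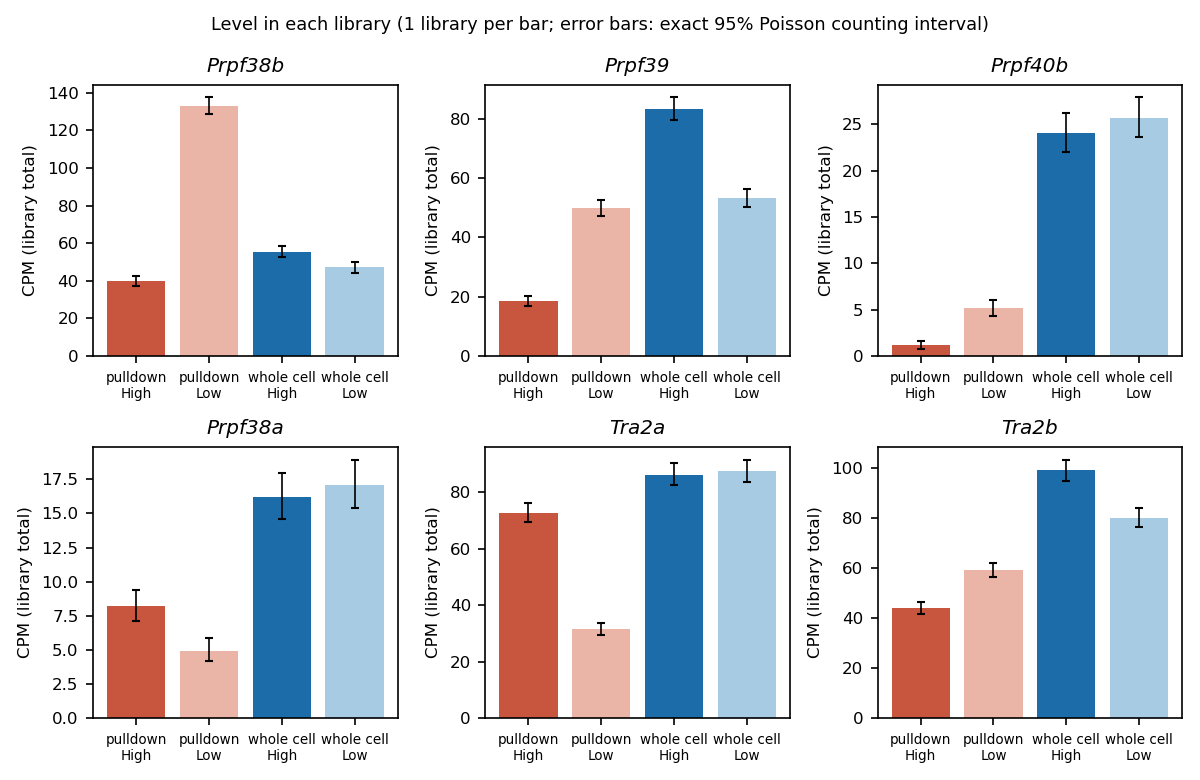
Level in CPM (library totals) of 6 genes in each library, with the pulldown in red and whole-cell RNA in blue and the High library left of the Low one; error bars are exact 95% Poisson intervals of the count. Prpf38b stands at 133 CPM in the Low pulldown only, and Tra2a is at 72.6 CPM in the High pulldown and 31.7 CPM in the Low one.

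The SR proteins and TRA2 genes had a median of 0.01 in the pulldown and 0.08 in whole-cell RNA. Tra2a (ENSMUSG00000029817, chr6:49243921-49264248) had 1878 reads (72.6 CPM) in the High pulldown and 881 (31.7 CPM) in the Low pulldown, with 1903 (86.2 CPM) and 1896 (87.4 CPM) in High and Low whole-cell RNA. Between the pulldowns, Low had the lower level, and whole-cell RNA was level. How the pulldowns stand against whole-cell RNA depends on the totals. The mean log2 ratio of pulldown over whole-cell across the states was -0.86 by library totals and 0.59 without mitochondrial genes. The ratio of High over Low was 1.49 (1.38 to 1.61) in the pulldown, 2.81-fold, and -0.09 (-0.18 to 0.01) in whole-cell RNA, the lowest of its group. No RefSeq gene overlaps it. Tra2b, which binds the same kind of enhancer, had 1139 and 1651 reads in the High and Low pulldowns (44.0 and 59.3 CPM; -0.13, -0.24 to -0.02) and 2190 and 1740 in whole-cell RNA (0.24, 0.15 to 0.33).

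Srsf3, the smallest SR protein, had the lowest pulldown ratio of the group, with 149 reads in High and 313 in Low (-0.67, -0.96 to -0.38), and 672 and 507 in whole-cell RNA (0.32, 0.15 to 0.49). Srsf5 (-0.62, -0.70 to -0.54) and Srsf10 (-0.53, -0.64 to -0.42) were also below 0 in the pulldown, with -0.08 and 0.05 in whole-cell RNA. Srsf1, the founding member of the family, had the highest whole-cell ratio of the group, 0.36, from 952 and 698 reads, and 0.40 in the pulldown from 973 and 972 reads. Srsf11 had 0.49 in the pulldown. The U2AF subunits lay on either side of 0 in the pulldown. U2af1, which reads the AG at the end of the intron, had 127 and 244 reads (-0.54, -0.86 to -0.23), and U2af2, which binds the polypyrimidine tract, had 473 and 464 (0.43, 0.24 to 0.62). In whole-cell RNA both were near 0, with 1009 and 899 reads for U2af1 (0.08) and 3589 and 3153 for U2af2 (0.10).

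**Figure D3:**
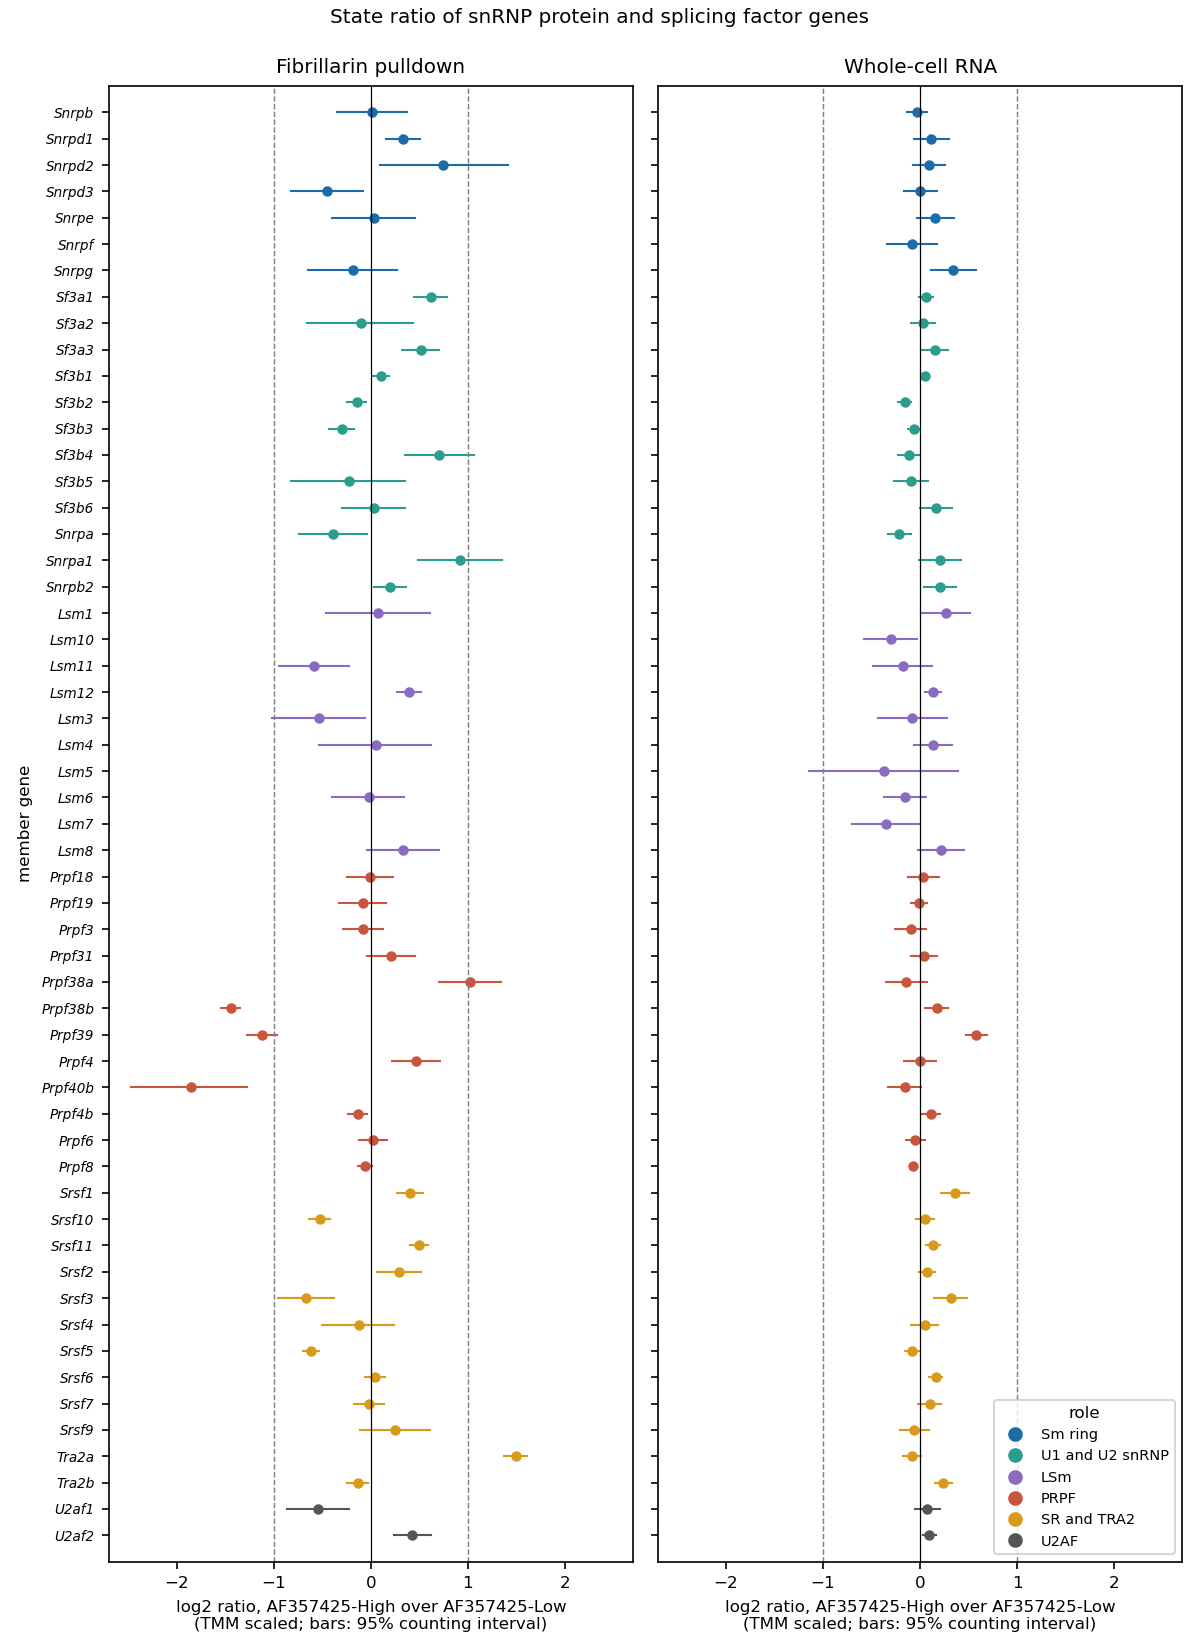
Log2 ratio of AF357425-High over AF357425-Low for the genes shown, grouped by role, in the pulldown (left) and in whole-cell RNA (right), with bars for the 95% counting interval and dashed lines at 2-fold. Prpf38b and Prpf40b lie wholly left of the line and Tra2a wholly right of it in the pulldown; no gene shown does in whole-cell RNA.

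Whether a gene's share in the pulldown shifted beyond its level in the cell was read from the pulldown state ratio minus the whole-cell state ratio, for the 54 genes with at least 10 reads in every library. Tra2a was called higher at 1.58 (1.43 to 1.73). Prpf38b at -1.62 (-1.77 to -1.46), Prpf39 at -1.70 (-1.89 to -1.52) and Prpf40b at -1.69 (-2.29 to -1.10) were called lower. The background was 2.65% called higher and 1.66% lower of 11356 genes. The median of the family was -0.02, against 0.00 over all genes. Prpf38a stood at 1.16 (0.79 to 1.54), Srsf3 at -0.99 (-1.31 to -0.66) and Tra2b at -0.38 (-0.52 to -0.23), none of them past the line. This difference rests on the same counts as the state ratios above and adds no independent evidence.

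The members were scarcer in the pulldown than in whole-cell RNA, as most genes were. By library totals, summed member levels were 1253 and 1582 CPM in the High and Low pulldowns and 4179 and 3916 CPM in High and Low whole-cell RNA. Of 55 genes measured in both states, 36 were called lower in the pulldown and 0 higher, against 60.6% lower and 1.42% higher of 12382 genes, and the median log2 ratio of pulldown over whole-cell was -2.01, against -1.95 over all genes. In High alone 43 of 55 were lower and 0 higher, against 74.1% and 2.41% of all genes, and in Low alone 38 of 56 were lower and 1 higher, against 62.4% and 2.58%. Mitochondrial genes took 65.4% and 61.8% of the reads in the High and Low pulldowns, which lowers the share of every other gene there. With mitochondrial genes left out of the totals, 14 were lower and 3 higher (Snrpd1 and Srsf1 among them), against 22.2% lower and 6.62% higher over all genes, and the medians were -0.56 and -0.51. A pulldown with a control antibody is not analysed here, so binding to fibrillarin cannot be told apart from carry-over.

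Roles differed in this ratio by description. U2AF (-2.93, both genes lower), the Sm ring (-2.52, 6 of 7 lower) and the U1 and U2 proteins (-2.39, 10 of 12) had the lowest medians. LSm (-1.78, 7 of 9), PRPF (-1.41, 7 of 13) and SR and TRA2 genes (-1.0, 4 of 12) had higher ones. Without mitochondrial genes in the totals, the medians of PRPF (0.03) and of SR and TRA2 genes (0.44) changed sign. The others stayed below 0, at -1.49 for U2AF, -1.08 for the Sm ring, -0.95 for the U1 and U2 proteins and -0.34 for LSm. By full library totals, single genes of a role differed widely. In the Sm ring, Snrpd1 stood at -0.25 in High and -0.11 in Low, and Snrpb at -4.06 and -3.74. Among the U1 and U2 proteins, Snrpb2, the U2 B'' protein, stood at -0.45 and -0.08, and Sf3a2 at -4.71 and -4.22. Snrpf had the lowest values, -6.65 (-8.94 to -5.08) in High and -8.36 (-13.67 to -5.87) in Low. They rest on 3 and 1 reads in the High and Low pulldowns. Ccdc38 and 4933408J17Rik overlap its span, so reads may be shared or dropped, which was not tested. Prpf38b was the 1 member called higher in the Low pulldown than in Low whole-cell RNA, at 1.5 (1.40 to 1.60), and it stood at -0.48 (-0.60 to -0.36) in High. Tra2a stood at -0.25 in High and -1.47 in Low. Across genes, longer spans went with higher pulldown-to-whole-cell ratios, with Pearson's r of 0.399 and Spearman's rho of 0.355 over 55 members and 0.253 and 0.274 over 10796 other protein-coding genes. These points share the same libraries, and genes are not independent replicates.

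**Figure D4:**
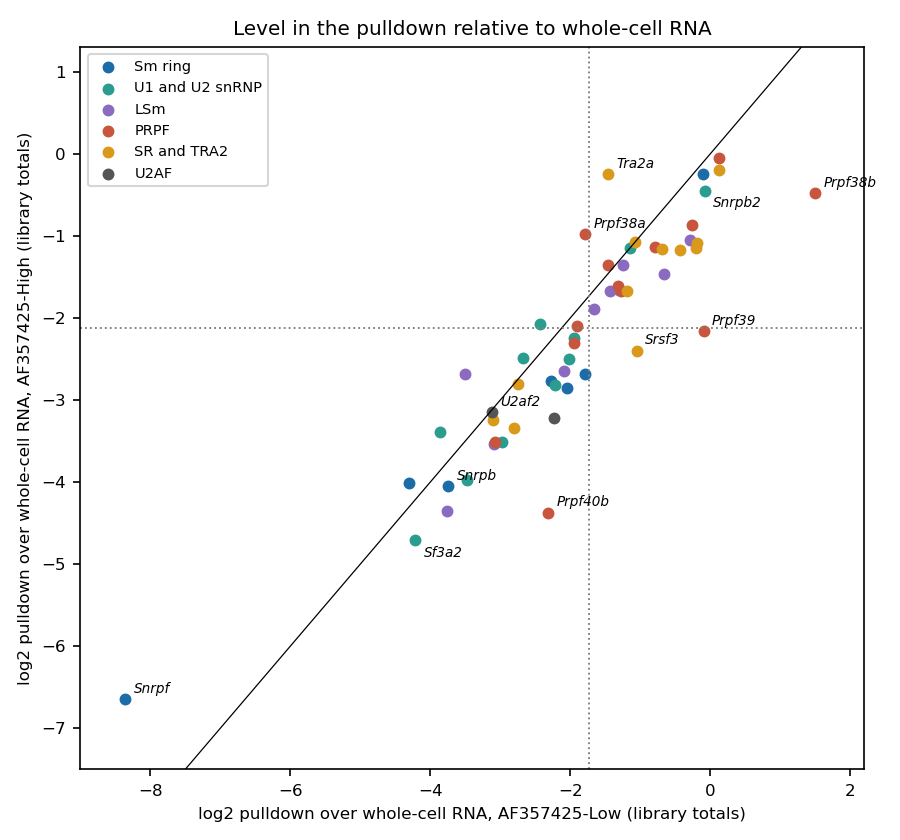
Log2 ratio of pulldown over whole-cell RNA by library totals in AF357425-High (vertical axis) and AF357425-Low (horizontal axis), 1 point per gene coloured by role; the diagonal marks equal ratios and dotted lines mark the median of all genes measured. Prpf38b, Prpf39 and Prpf40b lie below the diagonal and Tra2a and Prpf38a above it, and only Prpf38b is over 2-fold higher in the pulldown, in Low.

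Genes that work with these factors were described from 5 lists, for which the same pulldown background of 3.43% higher and 2.9% lower applies. For the change of ratio the background is 2.65% higher and 1.66% lower. Among 51 other snRNP and spliceosome proteins the median pulldown ratio was 0.19, with 38 above 0 and 13 below. Over all genes measured the median was -0.01, with 5278 above 0 and 5455 below. By library totals every pulldown ratio shifts by -0.29, which is larger in size than the median of this list. Xab2, a protein of the active spliceosome, was called higher (198 reads in High, 92 in Low; 1.51, 1.14 to 1.88), and Ppie, a spliceosomal cyclophilin, lower (6 and 58 reads; -2.87, -4.38 to -1.66). Xab2 was level in whole-cell RNA (642 and 659 reads, -0.13), and so was Ppie (239 and 227 reads, -0.02). Dhx16, the helicase related to yeast Prp2, had 59 and 25 reads in the High and Low pulldowns (1.64, 0.94 to 2.38) and 89 and 155 in whole-cell RNA (-0.89, -1.28 to -0.51), and its change of ratio was called at 2.53 (1.76 to 3.30). The change was also called higher for Xab2 at 1.63 (1.25 to 2.02) and for Ppih, a second cyclophilin, at 2.16 (1.36 to 2.96), from 43 and 27 reads in the pulldowns and 76 and 152 in whole-cell RNA. The ratio of Ppih was 1.07 (0.34 to 1.82) in the pulldown and -1.09 (-1.51 to -0.68) in whole-cell RNA, neither of them called.

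None of the 21 SR-related proteins and SR kinases was called in the pulldown, and their median was -0.14. Clk4, a kinase that phosphorylates SR proteins, had 206 and 623 reads in High and Low (-1.20, -1.43 to -0.97), and Srek1, an SR-related splicing regulator, had 834 and 2237 (-1.02, -1.14 to -0.91). In whole-cell RNA Clk4 stood at 0.13 and Srek1 at 0.27, and the change of ratio was called lower for both, at -1.33 (-1.60 to -1.05) and -1.29 (-1.43 to -1.15). Of 40 hnRNPs and regulators of alternative splicing, Rbm4 alone was called in the pulldown, lower, with 14 and 68 reads (-1.88, -2.82 to -1.04), and the median was -0.12. Its whole-cell ratio was 0.00 from 190 and 178 reads, and its change of ratio was called lower too. Another RefSeq gene overlaps the span of Clk4, and another that of Rbm4. In the 16 genes of the SMN complex and Sm ring assembly none was called and the median was 0.02, with Coil, the Cajal body protein coilin, at -1.26 (-1.83 to -0.72) from 37 and 117 reads. The 14 exon junction and nonsense-mediated decay factors gave none and a median of -0.04. Their ratios ran from -0.80 (Upf2, -0.94 to -0.67) to 1.02. No gene of the 5 lists was called between the states in whole-cell RNA.

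**Figure D5:**
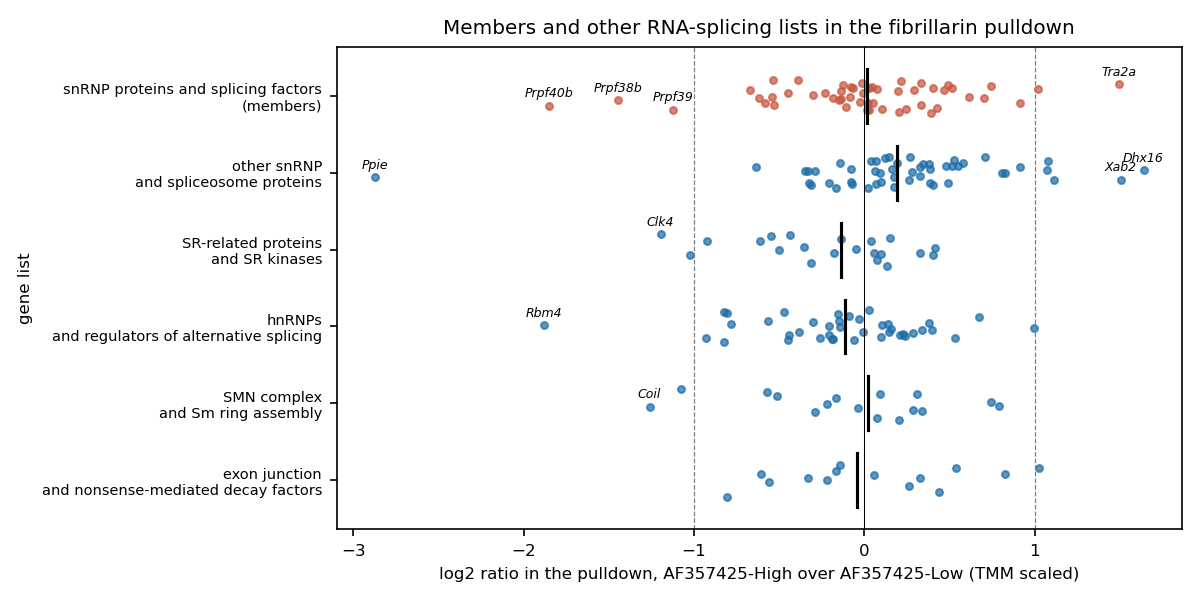
Log2 ratio of AF357425-High over AF357425-Low in the pulldown (TMM scaled) for the members, in red, and 5 lists of related genes, in blue, 1 point per gene measured, with black bars at the medians and dashed lines at 2-fold. The medians run from -0.14 to 0.19, and single genes of the members and of every list lie beyond the dashed lines.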

How the data were processed

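RNA from whole-cell lysates and from a fibrillarin pulldown was sequenced on the DNBseq platform. Raw fragment counts per gene were deposited by the authors. Per the submitters' processing notes, cutadapt 2.4, STAR 2.6.0c, HTSeq 0.9.1 and StringTie 1.3.4 were used with GRCm38. The sources used here give neither annotation nor strand setting, so reads of overlapping genes may be shared or dropped. Summary lines were left out of the totals; ambiguous fragments were 9.38% and 8.54% of the High and Low pulldowns and 1.05% and 1.09% of the whole-cell libraries.

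Genes averaging at least 1 CPM over a pair of libraries were compared. State ratios used TMM factors (edgeR 4.0.16, R 4.3.3), and pulldown over whole-cell used library totals, called only where both states passed. Intervals were exact (Clopper-Pearson, 95%) for a pair and a normal approximation (log scale) for the change. The arithmetic was checked on simulated data. Exon lengths were not used here, so levels are not compared between genes. Gene spans and promoters came from RefSeq (GRCm38.p6). Members and lists were chosen with earlier results of these data known. Named in full are called members and the extremes of each role group, and in other lists called genes and up to 3 with the largest pulldown ratio. Alternatives were other scalings, filters, fold lines, and leaving out overlapping genes. Single values of some genes are not reported here; the counts and medians include them.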

Additional observations from a re-analysis of the deposited data

Results flagged for a closer look

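In 6 of the 52 genes measured in both, the log2 ratio of High over Low lay on opposite sides of 0 in the pulldown and in whole-cell RNA. Each interval lay wholly on its own side. The share of such genes over all genes was not computed, so the count does not set the family apart. The change, pulldown ratio minus whole-cell ratio, was past 2-fold in 2 of them. For Prpf38b the ratio was -1.45 in the pulldown and 0.17 in whole-cell RNA, a change of -1.62 (-1.77 to -1.46). For Prpf39 it was -1.12 in the pulldown and 0.58 in whole-cell RNA, a change of -1.70 (-1.89 to -1.52). The change was -0.99 for Srsf3, -0.38 for Tra2b, -0.25 for Prpf4b and 0.82 for Sf3b4, none of them past the line. With 1 library per group, none of these differences was tested against the spread between replicates.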

How the results depend on the processing

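In the pulldown state comparison, library totals moved the median of the members to -0.28. A minimum of 5 CPM left 1 lower call, as did leaving out members that overlap another gene (Prpf40b dropped out of both). The point ratio and the 1.5-fold line each gave 2 higher and 3 lower calls, adding Prpf38a and Prpf39, and totals without the 20 most abundant genes also added Prpf39. By library totals Prpf38b stood at -1.74, Tra2a at 1.2 and Prpf39 at -1.42, which was then called. DESeq2 1.42.0 size factors moved no count. In whole-cell RNA, 0 members were called under every alternative run. For pulldown over whole-cell, TMM over all 4 libraries gave 5 higher, 13 lower and a median of -0.39. Totals without the 20 most abundant genes gave 3 higher, 13 lower and -0.56, and totals without mitochondrial genes gave 3, 14 and -0.56. The median was -1.89 at 5 CPM and -1.52 without overlapping genes. For the change of ratio, library totals gave a median of -0.38, the point ratio 3 higher calls (adding Prpf38a and Lsm7), and leaving out overlapping genes 1 lower call. Library totals also called Srsf3, at -1.35, and a minimum of 50 reads dropped Prpf40b. Of 66 values of single members under other settings, 59 lay inside the interval given, 7 outside, and 0 had the opposite sign. Filters, fold lines and leaving out overlapping genes do not alter a gene's ratio, so such values lie inside by construction. Only the other scalings could move a value, and all 7 outside came from library totals. No paired analysis was possible because each group has 1 library. No value has a replicate check, and low pulldown counts, as for Snrpf, Lsm7 and Prpf40b, limit what differences could be seen.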
